A study of Homo sapiens with 6 samples.

Results

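The genes described here encode parts of the lysosome: the LAMP membrane glycoproteins, the cathepsin proteases, and the subunits and accessory proteins of the vacuolar proton pump. They were chosen by name, as all probe sets, controls excepted, whose symbol in the authors' workbook begins with LAMP and a digit, ATP6V or ATP6AP, or is CTS with a letter and at most 1 digit. This gave 46 of 28869 probe sets, for 43 genes. Of the 46, 44 had values on the arrays, 1 or more for each gene. The remaining 2 were empty on every array and belong to ATP6V1G2, which another probe set measured.

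The arrays hold MDA-468.shp53, breast cancer cells of human origin. By its name the line derives from MDA-MB-468, which has mutant p53, and carries a short hairpin RNA against p53. The cells were grown in 3-dimensional culture for 8 days with doxycycline (+DOX), which induces such hairpins, or without it (-DOX). By the design text there were 3 independent experiments with 1 array of each group, so 3 arrays per group. The array names in the authors' workbook share a tag for some arrays of each group, and its meaning is not stated. Both groups carry the hairpin construct, the labels do not say whether the line is 1 clone, and no array of cells that lack the hairpin was used here, so effects of the drug and of the hairpin cannot be told apart. The series asked how mutant p53 bears on the growth of mammary cells in such culture.

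Lysosomes are acidic compartments that break down material from endocytosis and autophagy. The vacuolar proton pump (V-ATPase) acidifies them: its cytosolic V1 sector splits ATP, and its membrane V0 sector lets protons through. Several subunits have a widespread form and paralogs that are known mainly from particular tissues, such as acid-secreting cells of the kidney, osteoclasts, brain or testis. Cathepsins are the lysosomal proteases and need acid to mature, and LAMP glycoproteins line the membrane. Many of these genes are known targets of TFEB and its relatives, which bind E-box sequences in their promoters.

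All levels are log2 signals from the authors' Robust Multichip Average (RMA), and all changes are +DOX minus -DOX on that scale. They were tested in limma with the experiment as a term, with Benjamini-Hochberg adjustment over 28026 probe sets and a threshold of 0.05. Errors are SD over 3 arrays for levels and moderated standard errors (SE) for changes. In such bulk RNA, fewer cells of a type and less RNA per cell cannot be told apart. Array medians lay between 7.45 and 7.56, and the median change over all probe sets was -0.01. Epithelial markers (7 genes) averaged 12.33 to 12.45 on +DOX arrays and 12.47 to 12.60 on -DOX arrays, and KRT8 (-0.63, adjusted p = 0.00498) was the 1 of the 7 that passed the threshold. Leukocyte markers (8 genes) averaged 6.88 to 6.90 on +DOX arrays and 6.89 to 7.02 on -DOX arrays, and the leukocyte gene PTPRC had 4.08 to 4.22 on +DOX arrays and 4.08 to 4.33 on -DOX arrays. Other leukocyte markers were brighter: CD14 had 10.35 to 10.97 on +DOX arrays and 11.04 to 11.57 on -DOX arrays. TYROBP had 9.19 to 9.34 on +DOX arrays and 9.18 to 9.48 on -DOX arrays, and CSF1R 7.21 to 8.07 on +DOX arrays and 7.41 to 7.68 on -DOX arrays. No marker was at 0, since RMA gives every probe set a signal. CD14 was the only leukocyte marker past the threshold (-0.65, adjusted p = 0.0035), and its part in the results below was not tested. Fibroblast markers (5 genes) averaged 6.26 to 6.36 on +DOX arrays and 6.22 to 6.43 on -DOX arrays, and endothelial markers (4 genes) 6.01 to 6.11 on +DOX arrays and 6.03 to 6.17 on -DOX arrays.

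With doxycycline, 9 of the 44 member probe sets fell and 3 rose, and 32 did not pass. That is 27.3%, against 12.8% of all 28026 probe sets. The share that fell was 20.5%, against 6.63% of all probe sets, and the share that rose 6.82%, against 6.14%. The falls were mostly in the proton pump, where 7 of 22 subunit probe sets fell and 1 rose. Among cathepsins 2 of 17 fell and 1 rose, a share of 17.6% that is near the background. LAMP3 rose most of all members, 4.08-fold, and the pump subunit ATP6V1C2 had the largest fall, 3.86-fold. Most members moved little: 28 of the 44 changed by less than 0.25, and the median change was -0.06. The median absolute change was 0.15, against 0.10 over all probe sets. The groups did not overlap for 18 members (40.9%), against 24.9% of all probe sets. Without experiment 2 there were 7 calls in place of 12, and without experiment 3 there were 6, each with 1 rise. The count over all probe sets dropped in these runs too, from 3580 to 1909 without experiment 2 and 1355 without experiment 3. The methods' t-test at its 1% level, which pairs the arrays of each experiment, called 8 members (18.2%), against 4.16% of all probe sets.

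**Figure D1:**
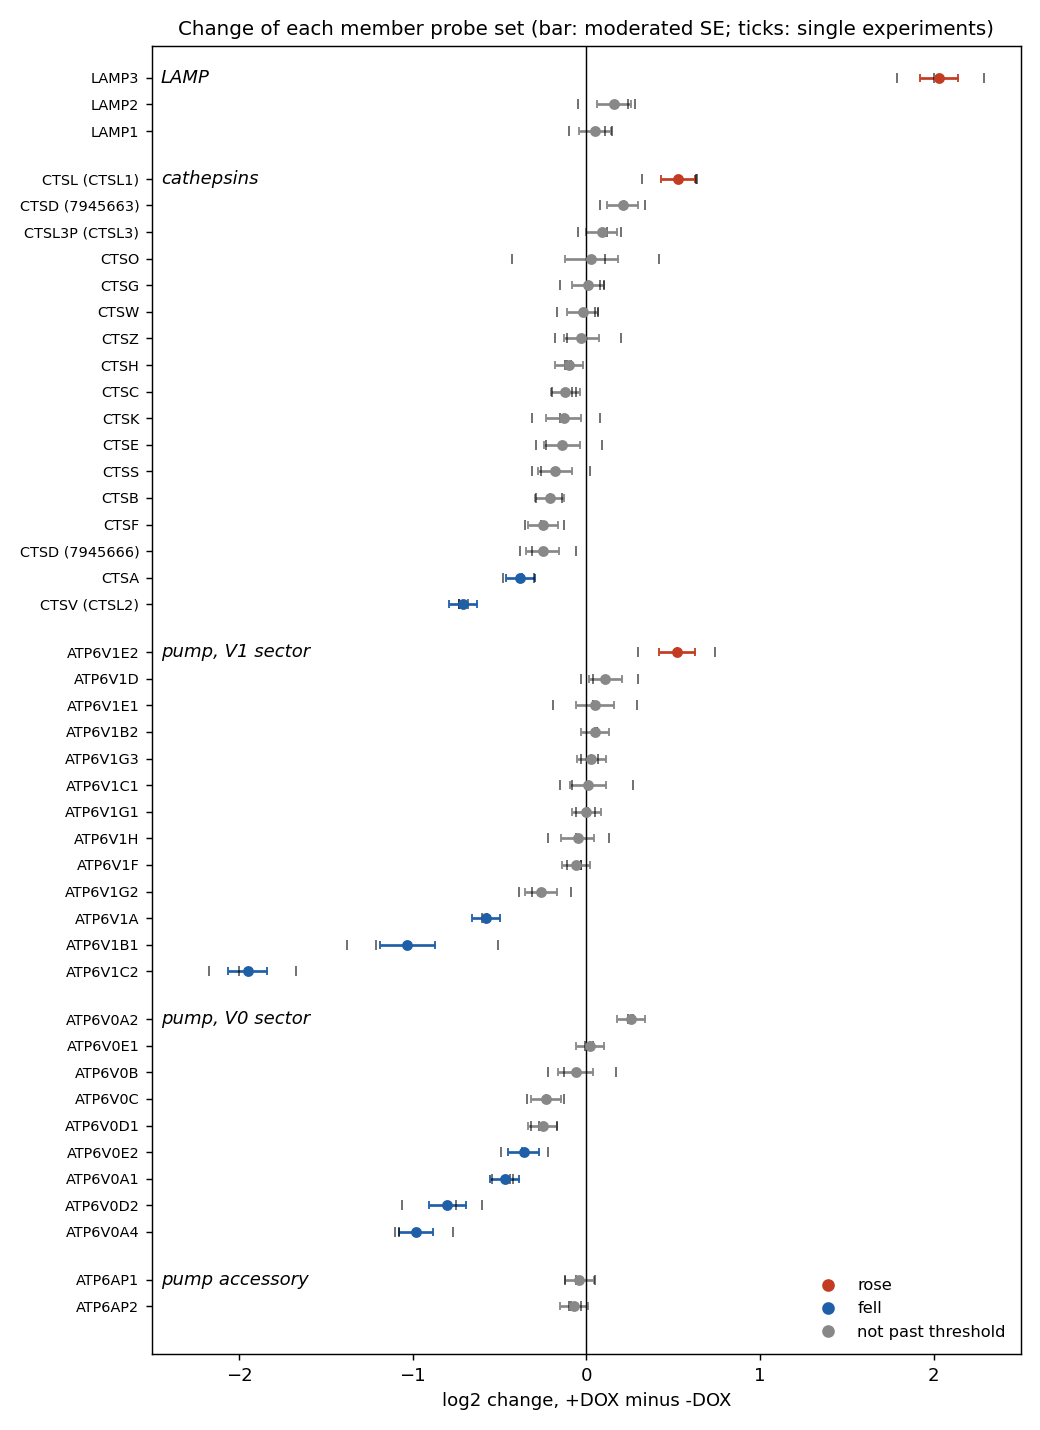
Change of each member probe set on the log2 scale, +DOX minus -DOX, with the moderated SE as a bar and the 3 experiments as ticks. Points are coloured by whether the probe set rose, fell or did not pass the limma threshold. LAMP3 (2.03) and ATP6V1C2 (-1.95) lie far from the other members, and most points sit within 0.25 of 0.

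The LAMP family split into 1 gene with a large rise and 2 genes that did not pass. LAMP3 (chr3:184322697-184363317, minus strand, NCBI build 36, 30 probes over the gene) encodes DC-LAMP, a member known from mature dendritic cells and from stress responses of tumour cells. It had signals of 9.09, 9.78 and 9.89 on the +DOX arrays of experiments 1, 2 and 3, against 7.30, 7.78 and 7.60 on the -DOX arrays. The groups were well apart, and each experiment moved up, by 1.79 to 2.29. The change was 2.03 (SE 0.11, limma adjusted p = 0.000212).

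LAMP1 and LAMP2 encode the abundant glycoproteins of the lysosomal membrane, and LAMP2 also serves chaperone-mediated autophagy. LAMP1 had 11.55, 11.39 and 11.45 with doxycycline and 11.40, 11.49 and 11.35 without. Its groups overlapped, and the change of 0.05 (SE 0.0897, adjusted p = 0.848) was within the spread of the arrays. LAMP2 had 10.86, 10.93 and 10.95 with doxycycline and 10.91, 10.69 and 10.67 without. Experiments 2 and 3 were higher by 0.24 and 0.28 and experiment 1 lower (-0.05), and the change of 0.16 (SE 0.0971, adjusted p = 0.42) did not pass. LAMP1 lies at chr13:112999470-113025746 and LAMP2 at chrX:119446367-119487189.

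**Figure D2:**
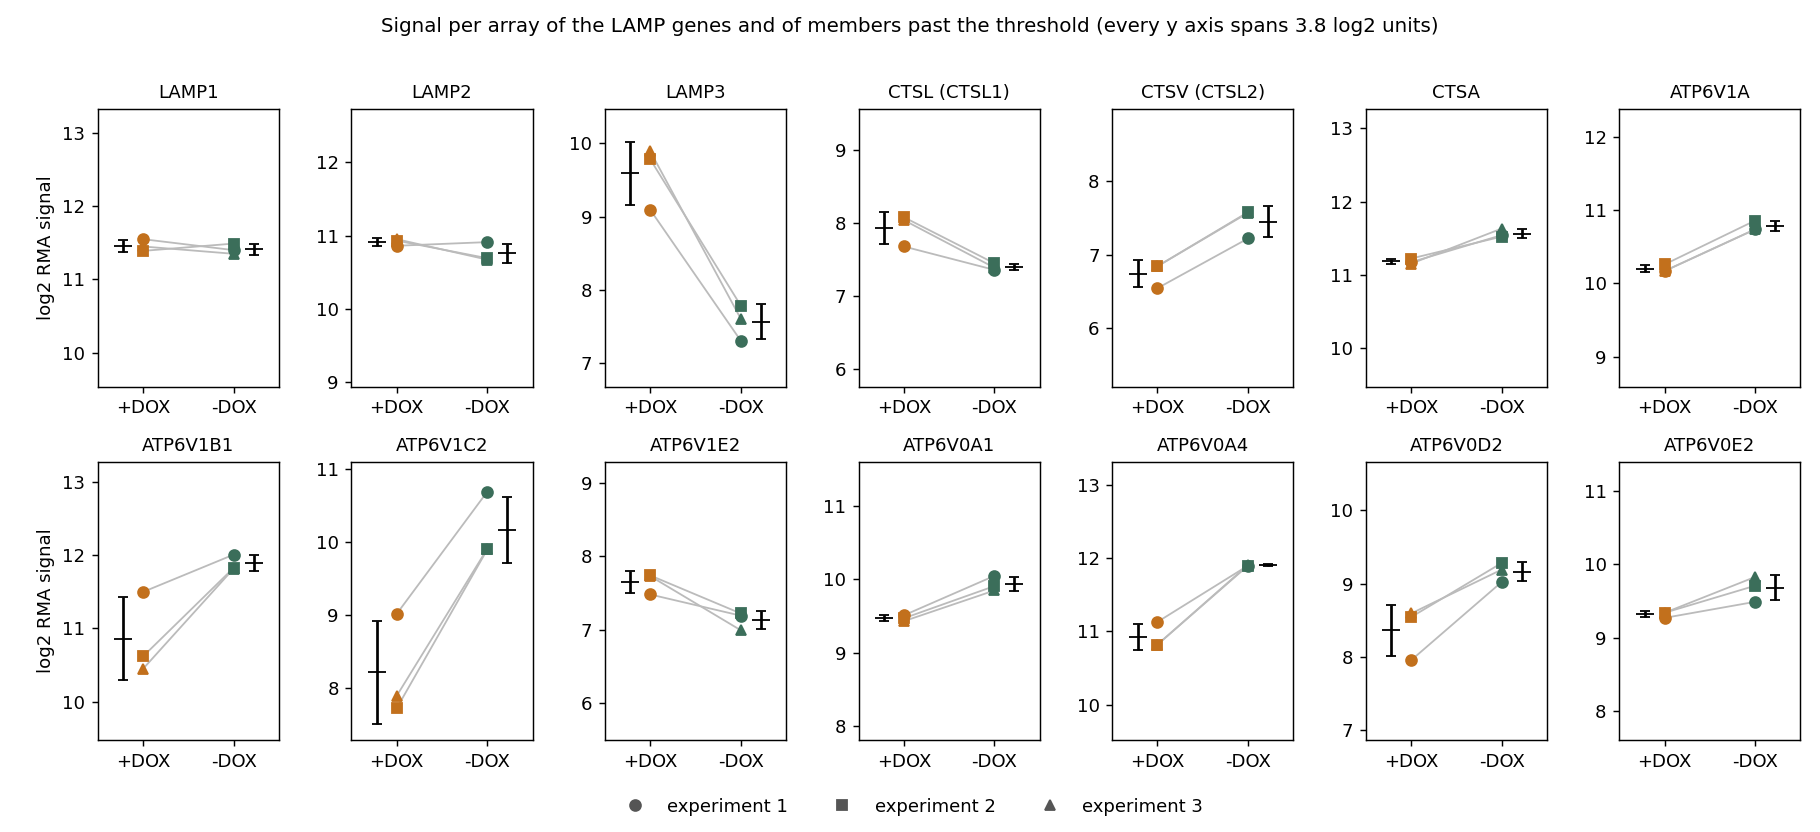
Log2 RMA signal on each array for the LAMP genes and the members past the threshold, with +DOX on the left and -DOX on the right of each panel, lines joining the 2 arrays of an experiment, and mean and SD (n = 3) beside the points. Every panel spans the same range of log2 units. LAMP3, CTSL and ATP6V1E2 sit higher on all +DOX arrays, the other called members sit lower, and LAMP1 and LAMP2 overlap.

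In the V1 sector, 3 of 13 measured probe sets fell, 1 rose and 9 did not pass. The share called was 30.8%, against 12.8% of all probe sets. The fall in ATP6V1C2 was the largest of any member. It encodes the C2 form of the stalk subunit C, known from kidney, lung and epididymis, and lies at chr2:10779226-10842687 (plus strand, 24 probes). Its signals were 9.02, 7.73 and 7.90 on +DOX arrays, against 10.69, 9.90 and 9.91 on -DOX arrays. Both arrays of experiment 1 were higher than their counterparts, and the fall stood in each experiment (-2.17 to -1.67). The change was -1.95 (SE 0.111, adjusted p = 0.000247) and passed in each alternative run, except that the methods' t-test called no probe set at all after adjustment.

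ATP6V1A and ATP6V1B1 belong to the ATP-splitting head of the pump. ATP6V1A, the catalytic A subunit, which has no paralog in this set, lies at chr3:114948598-115013593. It had 10.17, 10.26 and 10.17 with doxycycline, against 10.74, 10.86 and 10.74 without. The arrays within a group differed little, and the change of -0.58 (SE 0.0807, adjusted p = 0.00482) was nearly the same in each experiment (-0.57, -0.60 and -0.57). ATP6V1B1, the B form of kidney intercalated cells and the inner ear, lies at chr2:71016506-71046203. Its signals were 11.50, 10.62 and 10.45 with doxycycline, against 12.01, 11.83 and 11.82 without. Experiment 1 fell least (-0.51, against -1.21 and -1.38), and the change was -1.03 (SE 0.159, adjusted p = 0.00694). Without experiment 3 it no longer passed (adjusted p = 0.0558).

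ATP6V1E2, a form of the stalk subunit E known from testis, was the pump subunit that rose. It lies at chr2:46592490-46623200, and had 7.48, 7.74 and 7.73 with doxycycline against 7.19, 7.22 and 6.99 without. All +DOX arrays were above all -DOX arrays, with a change of 0.52 (SE 0.104, adjusted p = 0.0179). The call was lost without experiment 2 (adjusted p = 0.0639) or 3 (0.0943). Its probe set was tied to the gene by symbol only, and not through a RefSeq transcript as the other pump probe sets were. The other V1 probe sets changed by -0.26 to 0.11. They include the second form of subunit B, ATP6V1B2 (0.05, SE 0.0805), the widespread C1 and E1 forms (ATP6V1C1, 0.01, SE 0.105, and ATP6V1E1, 0.05, SE 0.108), ATP6V1G1 (0.00, SE 0.0822), the rotor subunits ATP6V1D (0.11) and ATP6V1F (-0.06), the regulatory subunit ATP6V1H (-0.05), and the kidney form ATP6V1G3 (0.03). ATP6V1G3 was dim, with a mean of 4.49 on +DOX arrays and 4.46 on -DOX arrays, far below the array medians. A change in it could therefore be missed. ATP6V1G2, known from brain, was lower on all +DOX arrays, at 6.55, 6.83 and 6.62, against 6.94, 6.92 and 6.92 on -DOX arrays. Its change of -0.26 did not pass (adjusted p = 0.125).

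In the V0 sector, 4 of 9 probe sets fell (44.4%, against 6.63% of all probe sets), none rose and 5 did not pass. The median change was -0.25. The methods' paired t-test at its 1% level called 2 of the 9, ATP6V0A1 (lower) and ATP6V0A2 (higher). Subunit a, which couples the sectors and steers the pump to its compartment, had 3 forms among the members. ATP6V0A4, the form of kidney intercalated cells (chr7:138041579-138133481, minus strand, 29 probes), had 11.13, 10.82 and 10.82 with doxycycline, against 11.90, 11.90 and 11.91 without. The untreated arrays were almost equal, and the change was -0.98 (SE 0.0978, adjusted p = 0.00146). ATP6V0A1 (chr17:37864388-37928123) had 9.51, 9.47 and 9.43 with doxycycline, against 10.05, 9.91 and 9.85 without. It fell by 0.47 (SE 0.0828, adjusted p = 0.0114), a call lost with any experiment left out (adjusted p = 0.0505 to 0.0525). ATP6V0A2, a form of Golgi and endosomes, went the other way on every array pair, at 9.79, 9.86 and 9.74 with doxycycline and 9.53, 9.59 and 9.51 without. Its change of 0.26 (SE 0.0807) did not pass in limma (adjusted p = 0.0856).

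The fourth form of subunit a, TCIRG1, is outside the naming rule. It is the form of the osteoclast pump and had 10.06, 9.81 and 9.96 with doxycycline, against 10.39, 10.33 and 10.37 without. It fell by 0.42 (SE 0.0855, adjusted p = 0.0184), but not without experiment 2 or 3 (adjusted p up to 0.114). Thus 3 of the 4 forms of subunit a were called lower in limma, against 6.63% of all probe sets. Of these calls, those of ATP6V0A1 and TCIRG1 did not stand in every run with 1 experiment left out. ATP6V0A4 missed the 1% level of the methods' paired t-test (unadjusted p = 0.0117).

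ATP6V0D2, the form of subunit d known from kidney and osteoclasts (chr8:87180249-87235573), had 7.95, 8.54 and 8.59 with doxycycline, against 9.02, 9.28 and 9.19 without. Experiment 1 fell most here (-1.06, against -0.75 and -0.60), and the change was -0.80 (SE 0.107, adjusted p = 0.00403). ATP6V0E2, a form of the small subunit e known from brain (chr7:149200990-149208720), had 9.27, 9.34 and 9.34 with doxycycline, against 9.49, 9.71 and 9.83 without. Its change of -0.36 (SE 0.0901, adjusted p = 0.0406) did not pass in the fit without the block (adjusted p = 0.0722), with equal array medians (0.052) or with any experiment left out (0.0577 to 0.172). The remaining V0 probe sets did not pass. ATP6V0D1, the widespread d form, changed by -0.25 and ATP6V0C, the main proteolipid of the proton-carrying ring, by -0.23, both lower in each experiment with overlapping groups. The ring subunit ATP6V0B changed by -0.06 and the widespread e form ATP6V0E1 by 0.02.

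Set side by side, paralogs of the same pump subunit changed by different amounts. The tissue-restricted forms had 5 falls and 1 rise among 8 probe sets (75%), the dim ATP6V1G3 among them, with a median change of -0.58. The widespread forms had 1 fall among 8 (12.5%), with a median of 0.01. The 6 subunits with a single form had 1 fall (16.7%) and a median of -0.06. Of all probe sets 12.8% were called. The order of the calls depended on the test. At its 1% level the methods' paired t-test called 1 of the 8 restricted and 3 of the 8 widespread probe sets, against 4.16% of all. The split into forms was made from general knowledge with the changes in view, so it is a description. The change of ATP6V1C2 minus that of ATP6V1C1 was -1.96 ± 0.39 (SD over 3 experiments, as are the errors that follow). The difference was -1.09 ± 0.46 for ATP6V1B1 against ATP6V1B2 and -0.52 ± 0.25 for ATP6V0A4 against ATP6V0A1. For ATP6V0D2 against ATP6V0D1 it was -0.55 ± 0.31, and for ATP6V0E2 against ATP6V0E1 -0.37 ± 0.16. Of these 6 pairs, only that of subunit E had the restricted form higher, with a difference of 0.47 ± 0.02 for ATP6V1E2 against ATP6V1E1. The sign of the difference was the same in all 3 experiments for each of the 6 pairs. The differences were not tested. Subunit G, which has more than 1 restricted form, was left out of the pairs (ATP6V1G2 at -0.26 and ATP6V1G3 at 0.03, against 0.00 for the widespread ATP6V1G1). ATP6V0A2, another widespread form of subunit a (0.26), was left out too.

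**Figure D3:**
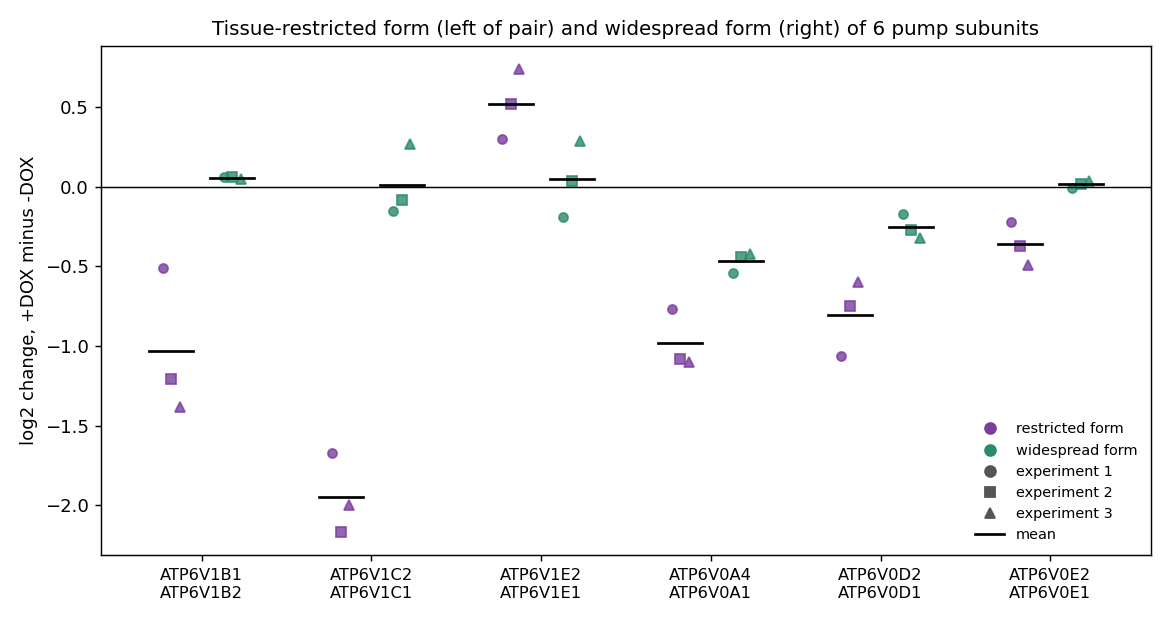
Log2 change, +DOX minus -DOX, of the tissue-restricted form (left of each pair) and the widespread form (right) of 6 pump subunits, with 1 point per experiment and the mean as a bar. The restricted forms of subunits B, C, a, d and e lie below their widespread partners, and that of subunit E lies above.

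The accessory subunits, which help assemble the pump and sit in its membrane sector, did not pass. ATP6AP1 changed by -0.04 (SE 0.0843) and ATP6AP2, also known as the prorenin receptor, by -0.07 (SE 0.0813), and neither had an unadjusted p under 0.05 in limma (0 of 2) or under 0.01 in the methods' paired t-test (0 of 2).

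Among the cysteine cathepsins, 1 of 12 probe sets fell, 1 rose and 10 did not pass. This share of 16.7% was near the 12.8% of all probe sets. CTSV (CTSL2 in the file, chr9:98834754-98841413, minus strand, 28 probes), a relative of cathepsin L known from thymus, testis and skin, had 6.54, 6.84 and 6.84 with doxycycline, against 7.22, 7.58 and 7.57 without. The experiments fell alike (-0.68, -0.73 and -0.73), and the change was -0.71 (SE 0.081, adjusted p = 0.0023). CTSL (CTSL1 in the file, chr9:89530254-89536128, plus strand, 24 probes), the widespread endopeptidase cathepsin L, went the other way. It had 7.68, 8.08 and 8.04 with doxycycline, against 7.36, 7.45 and 7.39 without. The change was 0.53 (SE 0.0973, adjusted p = 0.0129), lost without experiment 2 (0.0659) or 3 (0.0828). CTSL has related pseudogene copies, so its value is less certain, and the copy on the array, CTSL3P, changed by 0.09 (SE 0.0894). The other cysteine cathepsins changed by -0.25 to 0.03.

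Of these, CTSB, CTSC and CTSF were lower on all +DOX arrays than on any -DOX array without passing. Groups that did not overlap, in either direction, were found for 5 of the 12 cysteine probe sets and for 24.9% of all probe sets. CTSB, a widespread peptidase of tumour cells, had 10.08, 10.09 and 9.97 with doxycycline and 10.29, 10.23 and 10.26 without, with a change of -0.21 (adjusted p = 0.171). CTSF changed by -0.25 (adjusted p = 0.118). CTSC, which activates granule proteases, changed by -0.12, CTSH by -0.10, CTSZ by -0.03 and CTSO by 0.03. The osteoclast collagenase CTSK (-0.13) and the leukocyte cathepsins CTSS (-0.18) and CTSW (-0.02) were also among those that did not pass.

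CTSA, a serine carboxypeptidase that also protects beta-galactosidase and neuraminidase in the lysosome, fell. It lies at chr20:43952190-43960866 (plus strand, 44 probes) and had 11.17, 11.22 and 11.15 with doxycycline, against 11.54, 11.52 and 11.63 without. The change of -0.38 (SE 0.085, adjusted p = 0.026) was small but larger than the spread within either group, and was lost with any experiment left out (adjusted p = 0.0779 to 0.119). CTSG, the other serine member, a protease of neutrophil granules, changed by 0.01. The aspartic cathepsin D, CTSD, had 2 probe sets. The one on its RefSeq transcript (chr11:1730558-1741798) had 12.17, 11.79 and 11.81 with doxycycline and 12.24, 12.16 and 12.12 without, a change of -0.25 (adjusted p = 0.147). The other (chr11:1710216-1728397), beside it and named CTSD from cDNA clones alone, changed by 0.21 (adjusted p = 0.2), so the 2 disagree in sign. CTSE, the second aspartic protease, changed by -0.14. None of the 3 aspartic probe sets passed in limma, 2 had an unadjusted p under 0.05, and 0 had a p under 0.05 in the methods' paired t-test.

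Promoters were read to see which members carry the sequence bound by TFEB and its relatives. RefSeq promoters (GRCh38.p14, 250 bases before to 50 after the start site) were matched for 28 of the 43 genes, 15 of the pump, 10 cathepsins, LAMP1 and the accessory genes. The E-box CACGTG stood in 8 of these 28 (28.6%), against 7.27% of 27305 promoters of the same length, 1 per gene. Of the 8, CTSA and ATP6V0E2 fell and 6 did not pass, and 6 of the 20 members without it passed. The shares with and without the E-box were close and their difference was not tested. Over all probe sets 12.8% were called. The calls of CTSA and ATP6V0E2 were both lost with any experiment left out. The called members LAMP3, ATP6V1A, ATP6V0D2 and ATP6V1E2 had no promoter among the 28, so the comparison leaves them out. The CLEAR element in its full palindromic form, which extends the E-box by 2 bases on each side, was found in ATP6V1G1 alone, against 0.359% of all promoters. An ATF4 element, TTGCATCA, and a sterol element, TCACNCCAC, searched on both strands like the others, were in none of the 28, against 0.923% and 1.17% of all promoters. A match is a description of the letters and not of binding.

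The promoters below, each from 5′ to 3′ on the gene's strand, contrast members with the E-box in capitals, which fell (CTSA, at chr20:45891085-45891384, and ATP6V0E2, at chr7:149872714-149873013) or did not pass (LAMP1, at chr13:113296989-113297288). They are followed by ATP6V1G1 (chr9:114587519-114587818), with the CLEAR palindrome in capitals and a change of 0.00, and by ATP6V1C2 (chr2:10721380-10721679), the member that fell most, which holds none of the 4 motifs. LAMP1, ATP6V1G1 and ATP6V1C2 were chosen for display after their values were seen.
CTSA: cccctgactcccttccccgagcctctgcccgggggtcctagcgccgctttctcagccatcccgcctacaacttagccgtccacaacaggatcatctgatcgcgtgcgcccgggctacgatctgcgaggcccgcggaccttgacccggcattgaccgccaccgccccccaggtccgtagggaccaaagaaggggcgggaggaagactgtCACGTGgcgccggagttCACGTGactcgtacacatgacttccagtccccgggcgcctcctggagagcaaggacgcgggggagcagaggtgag
ATP6V0E2: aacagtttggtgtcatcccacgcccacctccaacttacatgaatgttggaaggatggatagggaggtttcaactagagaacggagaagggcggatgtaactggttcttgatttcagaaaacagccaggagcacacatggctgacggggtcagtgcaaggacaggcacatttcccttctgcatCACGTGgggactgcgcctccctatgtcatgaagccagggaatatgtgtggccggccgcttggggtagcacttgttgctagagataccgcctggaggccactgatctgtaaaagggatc
LAMP1: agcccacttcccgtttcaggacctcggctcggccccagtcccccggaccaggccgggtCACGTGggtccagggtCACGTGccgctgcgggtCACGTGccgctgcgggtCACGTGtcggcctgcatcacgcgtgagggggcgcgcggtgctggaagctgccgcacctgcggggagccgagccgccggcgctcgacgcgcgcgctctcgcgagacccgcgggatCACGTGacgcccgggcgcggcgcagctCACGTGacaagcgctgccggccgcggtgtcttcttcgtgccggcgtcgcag
ATP6V1G1: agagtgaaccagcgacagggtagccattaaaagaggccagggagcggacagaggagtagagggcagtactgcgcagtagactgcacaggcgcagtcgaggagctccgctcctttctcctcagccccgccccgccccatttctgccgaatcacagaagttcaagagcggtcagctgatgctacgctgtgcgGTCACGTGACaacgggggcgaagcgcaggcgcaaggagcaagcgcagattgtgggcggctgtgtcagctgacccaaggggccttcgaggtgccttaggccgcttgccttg
ATP6V1C2: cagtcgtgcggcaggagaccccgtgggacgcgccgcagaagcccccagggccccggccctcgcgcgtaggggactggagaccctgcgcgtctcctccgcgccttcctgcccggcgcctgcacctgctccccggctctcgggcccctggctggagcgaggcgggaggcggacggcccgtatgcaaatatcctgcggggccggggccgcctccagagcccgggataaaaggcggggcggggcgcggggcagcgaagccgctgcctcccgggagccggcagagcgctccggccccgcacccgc
LAMP1 holds 6 E-boxes in this window, the first at base -192 from the start site, and its signal differed by less than the spread of the arrays. CTSA holds 2, at -42 and -25, and ATP6V0E2 1, at -68.

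Other genes of the lysosome were read from 6 lists, over which 14 of 130 measured genes fell and 6 rose, 15.4%, which is near the 12.8% of all probe sets. Without the experiment term 9 fell and 3 rose, and the total of 20 was 9 without experiment 2 and 5 without experiment 3. In the same runs the count over all probe sets was 2409, 1909 and 1355, in place of 3580. The lysosomal hydrolases outside the cathepsins moved most, with 9 of 37 lower and 1 higher (27%), and a median of -0.17. Their 10 calls became 5 without experiment 2 and 3 without experiment 3. SCPEP1, a serine carboxypeptidase related to CTSA, had 9.52, 8.97 and 8.79 with doxycycline, against 10.09, 10.01 and 9.88 without, and fell by 0.90 (SE 0.118, adjusted p = 0.0038). PRCP, a prolyl carboxypeptidase, fell by 0.64 (SE 0.0875, adjusted p = 0.00441). CTBS, which trims chitobiose from glycans, rose by 0.72 (SE 0.165, adjusted p = 0.0293), but not without the experiment term, with the trended variance or without experiment 2 or 3 (adjusted p up to 0.167).

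The other lysosomal membrane proteins had 3 falls and 1 rise among 31, with a median of -0.10. Their share of 12.9% was that of the background (12.8% of all probe sets). LAPTM4B fell by 0.37, the channel TPCN1 by 0.36 and the transporter ABCA2 by 0.35, and TMEM192 rose by 0.36. Each of these calls was lost with any experiment left out (adjusted p up to 0.246). Without the experiment term only LAPTM4B passed (1 call in place of 4), and with equal array medians TPCN1 and ABCA2 did not pass. Of 11 genes listed as pump assembly and regulators, TCIRG1 alone passed (9.09%). It fell, and is itself a form of subunit a, as given above. None of 13 cystatins and other cathepsin inhibitors passed in limma, where 2 had an unadjusted p under 0.05, and 0 had a p under 0.01 in the methods' paired t-test. CST7 (0.33, adjusted p = 0.081) and CST2 (-0.23, adjusted p = 0.164) had the smallest p, and CST7 passed with equal array medians (adjusted p = 0.0444).

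Among 16 genes that sort enzymes to lysosomes, 2 rose and 1 fell (18.8%, against 12.8% of all probe sets). GNPTAB, which makes the mannose 6-phosphate tag of lysosomal enzymes, fell by 0.53 (SE 0.0901, adjusted p = 0.0101). IGF2R, a receptor of that tag, rose by 0.44 (SE 0.0849, adjusted p = 0.016), and the adaptor subunit AP3D1 by 0.47 (SE 0.0873, adjusted p = 0.0132). GNPTAB and IGF2R did not pass without the experiment term, and each of these 3 was lost with at least 1 experiment left out (adjusted p up to 0.0852). Of 22 MiT/TFE factors and mTORC1 genes at the lysosome 2 rose and none fell, with a median of 0.13. This share of 9.09% was below the background. RRAGC, a Rag GTPase that brings mTORC1 to lysosomes, had 10.54, 11.03 and 10.96 with doxycycline, against 10.09, 10.14 and 10.10 without, a rise of 0.73 (SE 0.109, adjusted p = 0.00605). FLCN, which acts on RRAGC and restrains TFEB and TFE3, rose by 0.53 (SE 0.0876, adjusted p = 0.0089). Both missed the threshold without experiment 3 (adjusted p = 0.052 and 0.0562), where the list had 0 calls. Its 2 calls became 4 without experiment 1 or with the trended variance, and 5 with the filter on dim probe sets or with symbols alone.

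**Figure D4:**
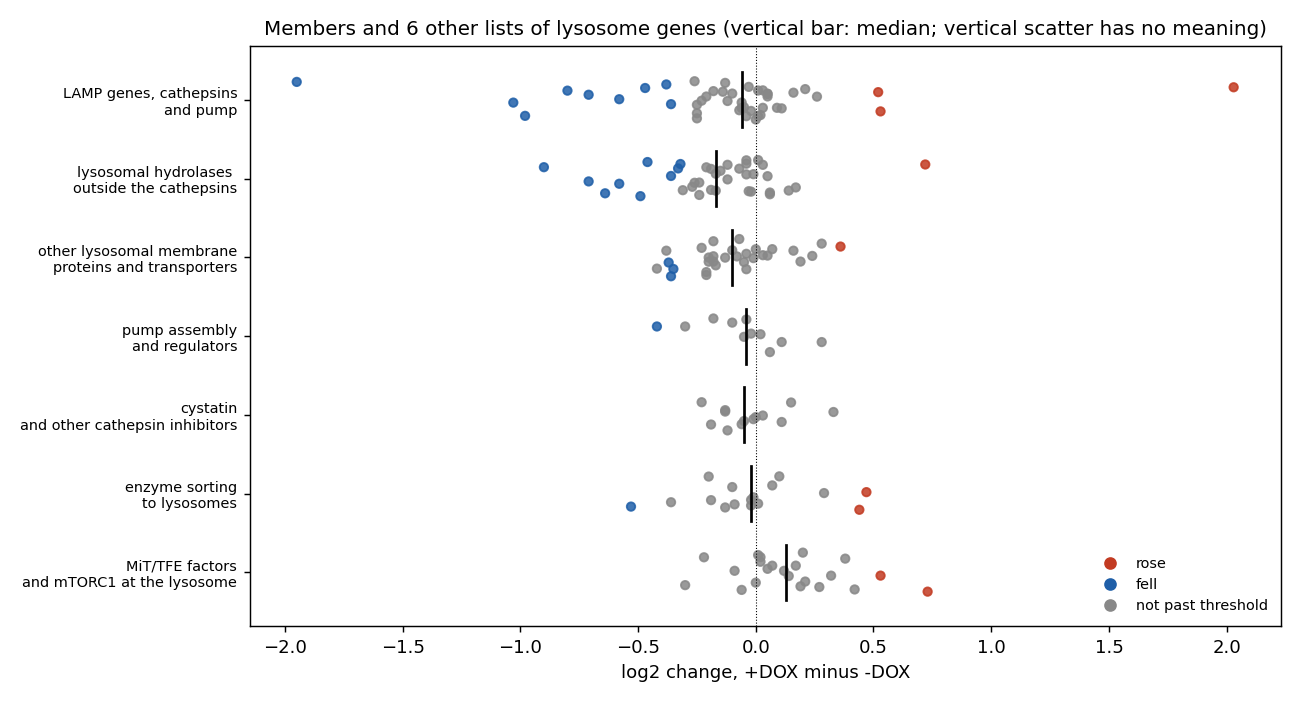
Log2 change, +DOX minus -DOX, of each member probe set (top) and of each measured gene in 6 other lists of lysosome genes, with the median as a vertical bar and colour for the limma call. The hydrolases have most of their called points below 0 (9 of 10), and the MiT/TFE and mTORC1 list has its median at 0.13.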

How the data were processed

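RNA from each group was hybridised to 3 Affymetrix gene-level arrays, 6 in all. The deposited values are log2 signals that the authors made with RMA (background correction, a common distribution for all arrays, 1 value per probe set) in R 2.11.1, per the submitters' processing notes and the design text. Arrays have no depth, and their number limits the precision. The file marks 4428 of 33297 probe sets as controls, which were left out. The 28026 others with values were tested in limma 3.58.1 under R 4.3.3 (lmFit, eBayes), with no filter on dim probe sets and the experiment as a block. The design text pairs the arrays, and deviations from the group means correlated within experiments 1, 2 and 3 at 0.482, 0.165 and 0.0993. Across experiments 2 and 3 they correlated at 0.278 and 0.286, above the values within each, so the pairing of these rests on the design text. Nothing says that the experiments began from separate stocks. The limma p-values rest on the spread between these experiments, moderated with the spread shared over all probe sets, and not on that of each probe set alone. The fit was also run on simulated data with independent noise on each array. Such data do not copy the correlation between arrays given above, so that run does not bear on the pairing. Members, lists, subgroups and motifs were chosen with earlier results of these data known. Values are given on each array for members past the threshold with 1 sign in all experiments and for each LAMP gene. Up to 4 genes per list are named by the largest change among those past the threshold, or 2 by the smallest p. A list gene with several probe sets stands as the brightest. Coordinates are those of the file (NCBI build 36 by its chromosome accessions), and promoters are from RefSeq. Alternatives were a fit without the block, a trended and robust variance, a filter on dim probe sets (mean at least 6), probe sets with a symbol alone, equal array medians, the methods' paired t-test and leaving out each experiment. Results for a few genes, among them the transcript that the hairpin targets, are not reported here.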

Additional observations from a re-analysis of the deposited data

How the results depend on the processing

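Of the 12 member calls, LAMP3, ATP6V1C2, CTSV and ATP6V1A passed in all 9 alternatives other than the methods' t-test after adjustment, and no called member changed its sign. The count of 12 was within 1.5 times with the filter on dim probe sets, with symbols alone, with the trended variance, with equal array medians, with 1 probe set per gene, without experiment 1 and with the methods' paired t-test at the 1% level (8). With 1 experiment left out it was 6 to 9 members. Over all probe sets the count of 3580 was 1165 with the methods' t-test at that level and 1355 to 2853 with 1 experiment left out (lowest without experiment 3). After Benjamini-Hochberg adjustment the methods' t-test called 0 of all probe sets, 0 members and 0 genes of the other lists, with 4449 probe sets and 15 members at an unadjusted p under 0.05. At its 1% level it also called ATP6V0A2, ATP6V1B2 and CTSH, with changes of 0.26, 0.05 and -0.10, and missed 7 of the 12 (ATP6V0A4, ATP6V0D2, ATP6V0E2, ATP6V1B1, ATP6V1E2, CTSA and CTSL), with unadjusted p of 0.0117 to 0.0602. For the other lists the count of 20 was 7 with that test, 12 without the replicate block and 5 to 15 with 1 experiment left out (lowest without experiment 3). Of the members, the fit without the replicate block lost ATP6V0E2 alone. The median of the LAMP genes was 0.09 to 0.26 with 1 experiment left out (highest without experiment 1), against 0.16, and that of the accessory genes -0.02 with equal array medians, against -0.06. The cause of these shifts was not tested.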
